A study of Capra hircus with 2 samples.

Results

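The spinous suprabasal keratinocytes of goat skin numbered 2537 of the 13051 cells that the authors kept, 872 from the library CT-LCG and 1665 from FT-LCG. CT-LCG is a library from 1 Liaoning cashmere goat of the coarse fibre type and FT-LCG a library from 1 goat of the fine type. Both came from scapular skin of healthy goats in anagen, the growth phase of the hair cycle, cleared of blood stains and fat before dissociation, with red blood cells lysed and dead cells removed after it. The labels give no genotype, age or treatment and do not say which sample is of which type, so the library names come from the deposited table of kept cells. Fibre type and goat cannot be told apart. A cell was selected on measured counts of unique molecular identifiers (UMIs), each of which stands for 1 captured RNA molecule. It had at least 3000 UMIs, its KRT14 and KRT5 UMIs made up less than 30% of the sum of KRT14, KRT5, KRT1 and KRT10, and these 4 keratins reached 100 of every 10000 UMIs. It also held less than 5 LOR UMIs per 10000, less than 3 UMIs of the cycling genes TOP2A, CENPF, UBE2C and BIRC5 together, and less than 20 per 10000 each of KRT6A and KRT35. Where a pair of values is given without a library, the first is of CT-LCG.

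Keratinocytes divide in the basal layer, where KRT5 and KRT14 form the keratin network and integrins anchor the cell to the basement membrane. A cell that leaves this layer becomes spinous: it replaces the basal keratins with KRT1 and KRT10, builds many desmosomes, and begins to make the precursors of the cornified envelope. In the granular layer above, loricrin (LOR), lipids and proteases are made for the final barrier. Notch signals and transcription factors such as those of the KLF, GRHL and CEBP families are known to take part in this course.

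Of the kept cells, 25.3% (Clopper-Pearson 95% interval 23.9 to 26.8) of CT-LCG and 17.3% (16.6 to 18.1) of FT-LCG were spinous. Among the cells with at least 3000 UMIs, the shares were 55.9% of 1561 cells and 27.6% of 6033 cells. Only 1561 of 3443 kept cells in CT-LCG passed the limit on UMIs, so the share depends on it. In CT-LCG the median depth of a spinous cell was 18937.5 UMIs over 3655.5 detected genes. In FT-LCG it was 12809 over 2813. In total the spinous cells held 16742470 and 23941802 UMIs. Of the cell barcodes, 11 occurred in both libraries among the kept cells and 1 among the spinous cells.

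For comparison, the same limits gave 3 other keratinocyte states. Basal cells, with KRT14 and KRT5 at 70% or more of the 4 keratins, numbered 235 and 2657. Cells in between, at 30 to 70%, numbered 112 and 490. Granular cells, with at least 5 LOR UMIs per 10000, numbered 14 in CT-LCG, too few for firm values, and 106 in FT-LCG. Levels are UMIs per 10000, summed over the cells of a state in 1 library. The kit counts one end of each molecule, so levels were not divided by gene length. Because the counts of these genes chose the cells, differences between the states are descriptions without a test. With 1 library per fibre type, there is no replicate check, and intervals cover counting error only.

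The label was set beside its 4 markers, of which KRT1 and KRT10 also chose the cells. The markers were named with earlier results of these data known, so their levels describe the cells and are no independent check. KRT10, the suprabasal type I keratin, stood at 339 and 434 per 10000 UMIs, and KRT1, its type II partner, at 232 and 205. AQP3, the epidermal water and glycerol channel, was not used by the rule and stood at 39.7 and 35.4, against 17.6 and 13.3 in basal cells and 18.8 and 6.2 in granular cells. CCL20, a chemokine that attracts CCR6-bearing leukocytes, stood at 15.7 and 20.2, against 2.08 and 5.70 in basal cells. All 4 markers were higher in the spinous than in the basal and granular cells of both libraries, as the plot of levels over the states shows. Of 13 further suprabasal genes measured, 10 were at least 2-fold higher than in basal cells in both libraries, among them KRTDAP, SBSN, DMKN, DSG1, DSC1 and KRT2, against 6.45% of all genes compared. Against granular cells, 2 of the 13 (LY6D and SERPINB5) were at least 2-fold higher in both libraries and 11 neither, where 6.52% of all genes compared were higher. The list thus sets spinous cells apart from basal cells more than from granular cells.

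**Figure D1:**
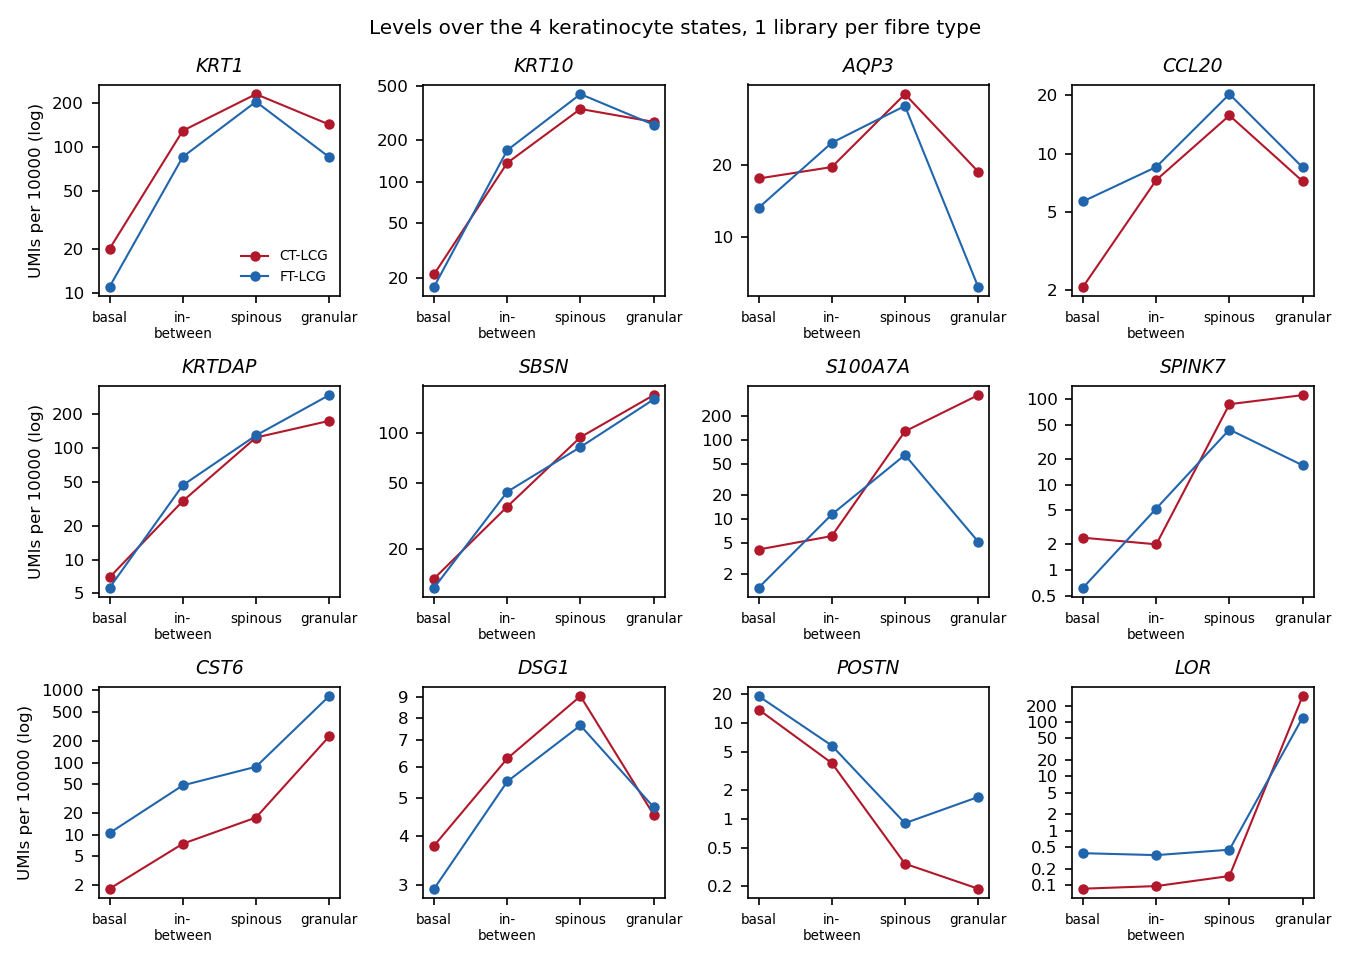
Levels of 12 genes, in UMIs per 10000 on a log axis, in basal, in-between, spinous and granular keratinocytes of CT-LCG (red) and FT-LCG (blue); each point is a sum over the cells of 1 state in 1 library. KRT1, KRT10, AQP3, CCL20 and DSG1 peak in the spinous state in both libraries, KRTDAP, SBSN and CST6 are highest in the granular state, and the granular point of CT-LCG rests on 14 cells.

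Cells just inside the limit on the keratin share, with a share of 25 to 30%, had a summed KRT10 level of 161 in CT-LCG (19 cells) and 272 in FT-LCG (71 cells), and cells just outside it, at 30 to 35%, had 204 (22 cells) and 220 (68 cells). AQP3 stood at 22.8 and 21.9 inside and at 15.9 and 27.5 outside, and CCL20 at 2.23 and 10.4 inside and at 17.3 and 11 outside, and for KRT10 and AQP3 the order of inside and outside differed between the libraries. At the limit on LOR, 9 and 34 cells held 3 to 5 UMIs per 10000, and 5 and 9 cells held 5 to 7. At the limit on the 4 keratins, 10 and 7 cells held 100 to 120 per 10000, and 7 and 3 cells held 80 to 100. At the limit on UMIs, 35 and 36 cells held 3000 to 3500 and 60 and 35 otherwise alike cells held 2500 to 3000.

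The 15 most abundant genes, ranked by the mean of both libraries, took 16.2% and 17.7% of the spinous UMIs. After KRT10 and KRT1 came KRTDAP, a secreted differentiation peptide, at 124 and 129 per 10000, and LGALS7, an epithelial galectin, at 89.2 and 139. SBSN and DMKN, secreted suprabasal proteins encoded beside KRTDAP, stood at 94.1 and 82.1 and at 57.0 and 61.6. S100A7A, of the psoriasin family of calcium-binding antimicrobial proteins, stood at 128 and 64.2, and SPINK7, a serine protease inhibitor, at 87.6 and 44.2. The others included RPLP1, RPS12, ACTG1, TPT1.1 and the uncharacterised LOC102180339 and LOC102168701. LOC102180339 lies next to LGALS7 in the goat reference table and had the same order of levels (60.9 and 92.5). Whether reads were split between close copies in this cluster is not known.

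Markers of other cell types were summed in the spinous cells. Fibroblast cells were the 16 and 21 kept cells with at least 3000 UMIs, at least 20 per 10000 of COL1A1, COL1A2 and COL3A1 together and less than 100 of the 4 keratins. The 8 fibroblast markers summed to 0.715 per 10000 and 1.65 in spinous cells, against 597 and 906 in these cells, a reference led by the collagens that chose them. All 8 were detected in spinous cells, led by POSTN, which basal keratinocytes also held. The 10 immune markers summed to 0.103, led by SRGN, and 0.255, led by CD74, and CD3E and CD3D were at 0 in CT-LCG. The 7 endothelial markers, all detected, summed to 0.0729 (PECAM1 highest) and 0.0902 (PLVAP highest). The 6 melanocyte markers summed to 0.151 and 0.156, nearly all of it MITF, with TYRP1 and DCT at 0 in both libraries and TYR at 0 in FT-LCG. The 6 smooth muscle markers summed to 0.0496, with MYH11, RGS5 and DES at 0, and 0.0735, and the red cell genes HBBC and ALAS2 were at 0 in both. Outer root sheath markers summed to 0.781 with LHX2 at 0 in CT-LCG and to 2.24 in FT-LCG, led by SOX9 in both. Hair shaft and inner root sheath markers, all 8 detected, summed to 1.92, led by TCHH, and 1.27, led by KRT25. Sebaceous and sweat gland markers, all 8 detected, summed to 9.67 and 11.3, led by MGST1 and PLIN2, which are not restricted to glands, above the sums of 4.80 and 6.68 in basal cells. Limits of the rule on KRT6A, KRT35, TOP2A, CENPF, UBE2C and BIRC5 held down the root sheath, hair shaft and cycling sums in part. Of the 10 cycling markers PCNA made up 1.19 of a sum of 1.35 and 0.497 of 0.608. The vimentin gene VIM was detected in 46 and 111 spinous cells when every cell was thinned to 3000 UMIs. The part of doublets and of free RNA in these values was not tested, and in the barcodes that the authors did not keep KRT10 stood at 179 and 136 per 10000, S100A7A at 70.5 and 17.0 and CST6 at 29.7 and 143.

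Against basal cells, 547 of 8486 genes were at least 2-fold higher in the spinous cells of both libraries (6.45%) and 464 were at least 2-fold lower (5.47%). A gene was compared where the spinous and basal cells together held at least 100 of its UMIs in each library. The median log2 ratio of spinous over basal over all genes compared was -0.06 and -0.13. Taken alone, CT-LCG gave 794 higher and 593 lower genes, and FT-LCG gave 764 higher and 1801 lower genes, so the count of lower genes differs by library. Ribosomal protein genes took 21.7% and 22.6% of the spinous UMIs and 29.5% and 30.6% of the basal UMIs, and their part in the ratios was not tested.

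The genes with the largest ratios toward spinous cells, ranked by the smaller of both libraries, included some with less than 0.1 UMI per 10000 in basal cells. A basal count of 0 stood at the floor of 3 counts and a count of 1 did not. The ranking thus favours genes with 1 basal UMI over genes with 0. KRT4, a keratin known from wet stratified epithelia, stood at 3.57 per 10000 and 2.97 against 0.0890 and 0.0359 in basal cells (log2 ratio 5.33 and 6.37). KRT2, a late suprabasal epidermal keratin, stood at 7.44 and 5.36 (5.09 and 5.17). SPINK7, at 2.38 and 0.618 in basal cells, had log2 ratios of 5.20 and 6.16. The serpins SERPINE2 (5.43 and 5.23) and SERPINA12 (5.37 and 6.13), the water channel AQP5 (5.39 and 6.03) and SUSD2 (6.06 and 5.12) followed the same pattern at lower levels. SUSD2 and AQP5 rest on 3 basal UMIs each in CT-LCG, with counting intervals of 4.51 to 8.34 and 3.84 to 7.67 on the log2 scale. GNG13 (5.72, interval 3.24 to 11.03), LOC102191570 (5.67, 3.18 to 10.98) and LOC102172768 (5.20, 2.71 to 10.51) completed the 10, with 1 basal UMI each in CT-LCG. In granular cells (14 in CT-LCG) some were higher still. The log2 ratio of spinous over granular was -2.31 and -1.78 for GNG13, -2.51 and -2.12 for SERPINA12, and -1.41 and -0.05 for KRT2. Its sign differed by library for KRT4 (-1.5 and 4.23), AQP5 (-2.52 and 5.92), LOC102191570 (-1.44 and 2.38), SPINK7 (-0.35 and 1.39) and SERPINE2 (-0.22 and 1.45). It also differed for SUSD2 (-0.05 and 0.29) and LOC102172768 (0.41 and -0.64). The ranking thus describes the contrast to basal cells only.

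Of the genes with the largest ratios away from spinous cells, CCL27, the skin T cell chemokine, stood at 0.170 and 0.558 against 12.8 and 21.4 in basal cells (log2 ratio -6.24 and -5.26). POSTN, the matrix protein periostin, stood at 0.344 and 0.907 against 13.7 and 18.9 (-5.32 and -4.38), and ITGB4, the hemidesmosomal integrin chain, had ratios of -5.65 and -4.60. The collagen chaperone SERPINH1 (-5.50 and -4.74), the Wnt ligand WNT10A (-6.06 and -4.32), COL12A1 (-4.90 and -4.30), IGFBP6 (-4.56 and -4.60), the focal adhesion protein TNS4 (-6.34 and -4.57) and the metalloprotease MMP7 (-4.81 and -5.92) were also among the 10. The last, LOC102179515, lies between KRT36 and KRT19 in the reference table and stood at 0.322 and 1.89 against 18.5 and 50.4.

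**Figure D2:**
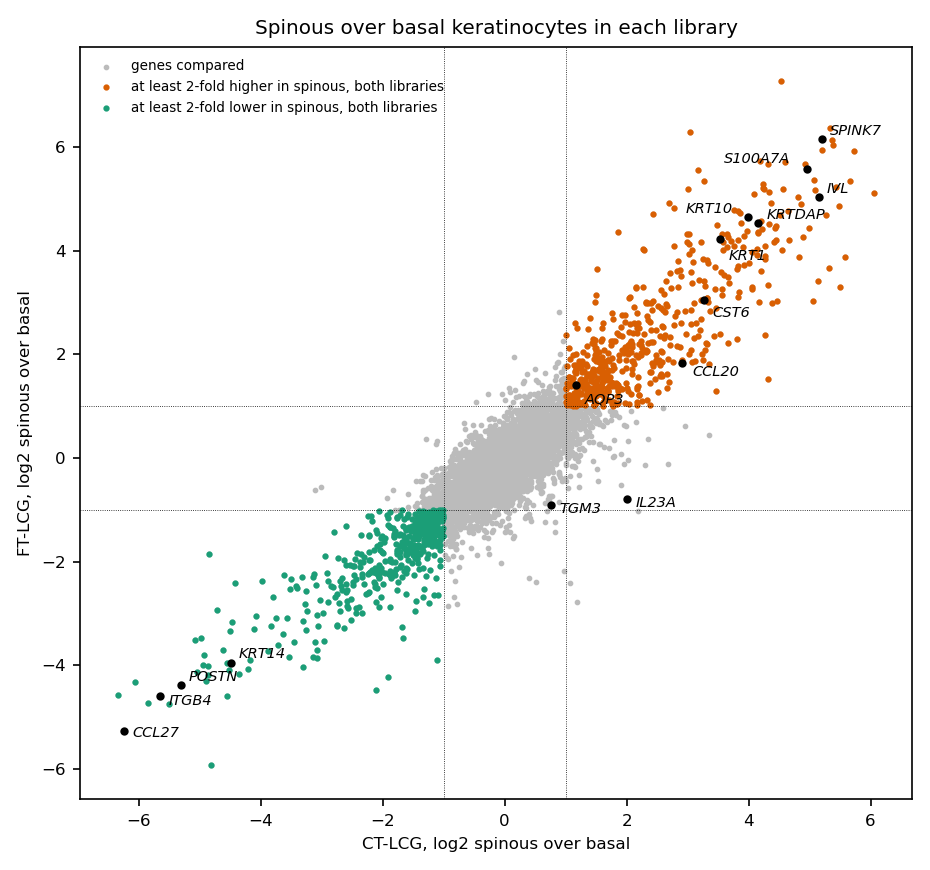
Each point is 1 of 8486 genes, with its log2 ratio of spinous over basal level in CT-LCG (x axis) and in FT-LCG (y axis); dotted lines mark 2-fold. Orange points (547 genes) were at least 2-fold higher in spinous cells of both libraries and green points (464) at least 2-fold lower; IL23A and TGM3 lie on opposite sides of 0 in the 2 libraries.

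Among the keratins, 14 of 20 in the matrix could be compared, of which 10 were higher and 3 lower in spinous cells. Besides KRT1, KRT10, KRT2 and KRT4 these were KRT77 (2.47 and 6.81), KRT80, KRT23, KRT9, KRT79 and KRT3. KRT14, KRT5 and KRT19 were lower. KRT1, KRT10, KRT14 and KRT5 chose the cells, so these counts and the median log2 ratio of the keratins, 3.15 and 3.5, rest on them in part.

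Of 18 desmosome and junction genes compared, 5 were higher, 2 lower and 11 neither, where 6.45% of all genes compared were higher and 5.47% lower. The suprabasal desmosomal cadherins DSG1 (9.07 and 7.64 per 10000) and DSC1 (4.24 and 4.19) were higher, with log2 ratios of 1.27 and 1.38 and of 1.75 and 2.26. DSG2 (-3.13 and -2.24) and DSG3 (-3.42 and -2.47), cadherins of the lower layers, were lower. The tight junction genes CLDN1, CLDN4 (6.70 and 12.7) and OCLN were higher. The plaque genes DSP (10.2 and 13.4, log2 ratios 0.89 and 0.99) and JUP (0.90 and 0.90) stayed just short of 2-fold. Of 15 cell-matrix adhesion genes compared, none was higher and 11 were lower, with a median log2 ratio of -2.33 and -2.30. They included the integrin chains ITGA6, ITGB1, ITGB4 and ITGB5, the focal adhesion gene FERMT1, the hemidesmosomal COL17A1, DST and PLEC, the anchoring fibril collagen COL7A1, and the laminin chain LAMA3. CD44, the hyaluronan receptor, differed little (-0.04 and 0.01).

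Most genes of the cornified envelope that were compared were higher in spinous than in basal cells, where 6.45% of all genes compared were higher and 5.47% lower. Of 18 early envelope genes compared, 12 were higher and 1, S100A10, was lower, with a median log2 ratio of 1.89 and 1.77. IVL, the envelope scaffold involucrin, was low (0.242 and 0.842) but had ratios of 5.15 and 5.03. CSTA, a cysteine protease inhibitor, stood at 5.68 and 8.43, and SPRR4 at 3.12 and 2.24. The crosslinking transglutaminases TGM1 (2.32 and 2.05) and TGM5 (4.05 and 3.29) were higher, as were the plakin genes EVPL and PPL. Of 18 genes of late cornification compared, 16 were higher than in basal cells and none lower, with a median log2 ratio of 3.09 and 2.91. The list includes the kallikreins KLK5, KLK7, KLK8, KLK10, KLK11 and KLK12, proteases known to cut corneodesmosomes. KLK7 stood at 3.47 and 5.10, and KLK12 at 4.73 and 3.36. Of 20 protease and inhibitor genes compared, 10 were higher, among them SERPINB5 (5.69 and 5.14), WFDC5 and PRSS8, and 1, CTSC, was lower.

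Lipid synthesis genes were higher in 16 of 32 compared and lower in 1, CERS2, against 6.45% and 5.47% of all genes compared. Their median log2 ratio was 1.25 and 1.13. FABP5, the epidermal fatty acid binding protein, was the most abundant at 41.8 and 50.9 (log2 ratio 2.65 and 3.42). Genes of ceramide metabolism (ACER1, UGCG, CERS3), of fatty acid elongation (ELOVL1, ELOVL4, ELOVL6) and of sterol synthesis (HMGCS1, SQLE, DHCR7, SC5D, MSMO1) were among the higher ones. ACER1, an alkaline ceramidase, stood at 0.585 and 0.984 (4.83 and 3.88). DGAT2 and ABHD5, which act in triglyceride storage and breakdown, had ratios of 3.66 and 3.49 and of 1.75 and 1.70.

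Of 36 differentiation transcription factors compared, 7 were higher and none lower, with a median log2 ratio of 0.29 and 0.31. KLF4, which takes part in barrier formation, stood at 26.4 and 18.7 (1.18 and 1.23). CEBPA stood at 3.56 and 3.88 (2.38 and 2.62). KLF3 (1.34 and 1.82), PRDM1 (1.93 and 2.09), GRHL1 (1.60 and 1.45), GRHL3 (2.90 and 2.59) and ELF5 (3.22 and 3.05) were the others. In the Notch pathway, 1 of 22 genes compared was higher, the receptor NOTCH3 (0.270 and 0.254 per 10000, ratios 1.21 and 1.07), and 1 was lower, the ligand JAG2 (-3.08 and -3.03). HES1, a Notch target, stood at 3.24 and 3.59 (-0.38 and 0.32). The median ratio of the list, -0.11 and -0.18, lay near that of all genes, of which 6.45% were higher and 5.47% lower.

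**Figure D3:**
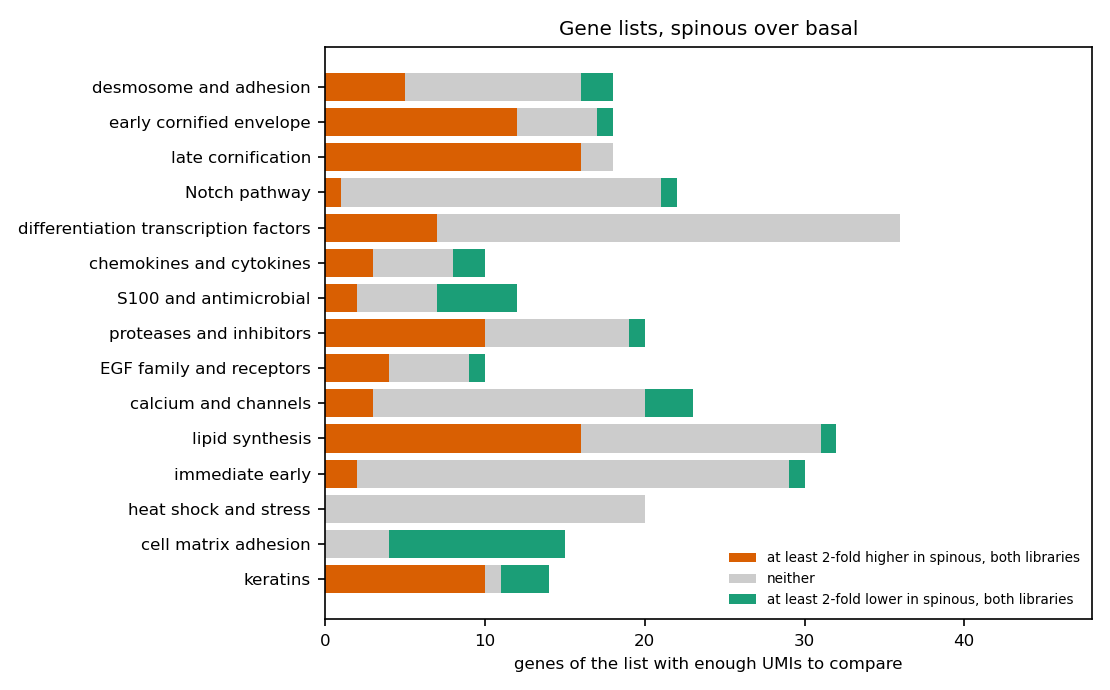
Number of genes of each list that were at least 2-fold higher in spinous than in basal cells in both libraries (orange), lower (green) or neither (grey), among the genes with enough UMIs to compare. Cell-matrix adhesion has 11 of 15 lower, late cornification 16 of 18 higher, and heat shock and stress 0 of 20 in either direction.

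Of 10 EGF family and receptor genes compared, the ligands HBEGF (5.05 and 3.35 per 10000), AREG (3.65 and 2.44), BTC and EREG were higher and the receptor inhibitor LRIG1 was lower. Of 10 chemokine and cytokine genes compared, CCL20 and the interleukin-1 family antagonists IL1RN (0.458 and 0.520) and IL36RN (0.990 and 0.868) were higher, and CCL27 and CXCL14 were lower. In the S100 and antimicrobial list, S100A7A and LYPD3 (9.59 and 11.6) were higher and 5 of 12 were lower. The lower ones were S100A2 (18.3 and 23.2 against 54.1 and 79 in basal cells), S100A4, S100A10, S100A13 and the peptidoglycan recognition protein PGLYRP1. Of 23 channel and calcium genes compared, 3 were higher, among them AQP3 and AQP5, 3 lower, among them the connexin GJB6 and the potassium channel KCNK1, and 17 neither, with medians of 0.12 and -0.12. Immediate early genes, which also respond to dissociation, were higher in 2 of 30 (KLF4 and NR4A2) and lower in 1 (SOCS3), and heat shock and stress genes in 0 of 20 each way. Over all genes compared, 6.45% were higher and 5.47% lower, so these counts do not set the immediate early genes apart. Both lists had medians within 0.24 of 0 on the log2 scale, with FOS at 20.8 and 27.8 per 10000 and JUN at 27.2 and 27.7.

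Against granular cells, 516 of 7910 genes were at least 2-fold higher in the spinous cells of both libraries (6.52%) and 197 were lower (2.49%). All genes compared had a median log2 ratio of 0.52 and 0.32, and relative to that median 181 were higher and 331 lower. With cells thinned to 3000 UMIs these counts were 78 and 390, and with LOR under 2 per 10000 they were 48 and 110, so the balance of both counts depends on these settings. After thinning, a gene at 0 in the 14 granular cells of CT-LCG stands at the floor of 3 counts, which can place it among the lower genes. The thinned counts are therefore no plain comparison at equal depth, and the part of the floor in them was not tested. CT-LCG alone gave 2253 higher and 393 lower genes and FT-LCG alone 1197 and 389. KPRP ranked first among the lower genes by the smaller difference of both libraries, with log2 ratios of -11.72 and -8.79. LOR, which chose the cells, ranked next with 0.146 and 0.446 per 10000 against 298 and 120. LOC102184770, which lies beside KPRP in the reference table, IL37, an anti-inflammatory interleukin-1 family member, and 6 other uncharacterised genes completed the 10. IL37 had log2 ratios of -14.62 and -7.73, with 1 spinous UMI in CT-LCG (interval -19.92 to -12.13). Of 20 late cornification genes compared, 13 were lower than in granular cells and none higher, with medians of -1.95 and -2.06, and KLK5, KLK7 and CNFN were thus between their basal and granular levels. CST6, an inhibitor of cathepsins, followed the same course with 17.2 and 87.2 in spinous cells and 229 and 832 in granular cells. Toward spinous cells, ALDH1A1, a retinaldehyde dehydrogenase, had log2 ratios of 2.50 and 5.96, BBOX1 2.54 and 2.42 and CHP2 2.37 and 2.70. LOC102185525, between CLCA4 and SH3GLB1, stood at 4.04 and 4.05 per 10000 against 0.213 and 0.686 in granular cells. IPMK (4.99 in CT-LCG, interval 2.51 to 10.29) and CD82 (4.75, 2.27 to 10.06) rest on 1 granular UMI each in CT-LCG. SLC35E3, GPR155, IL23A and LOC102170937, with 1 granular UMI each in CT-LCG, completed the 10, and the interval of IL23A in that library included 0 (-0.10 to 7.70). A granular count of 0 stood at the floor of 3 counts and a count of 1 did not, so this ranking favours genes with 1 granular UMI over genes with 0. With thinned cells the log2 ratios of SLC35E3, GPR155 and IL23A were -1.37, -1.58 and -1.66, against the limit that a count of 0 allows.

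Of 8729 genes compared, 942 (10.8%) were highest there in both libraries, and 7 (0.0802%) were at least 2-fold above each of the other 3 states in both. These were ALDH1A1, SPIRE2, DRC1, LRMP, TRIM40, CCL20 and PDZRN4. SPIRE2 (1 granular UMI in CT-LCG), DRC1 and TRIM40 (3 each) had intervals of the log2 ratio to granular cells in that library that included 0, from -0.65 to 7.16, -0.04 to 3.81 and -0.45 to 3.40. With thinned cells none of the genes compared passed this limit. There a count of 0 in the granular cells of CT-LCG stands at the floor of 3 counts, and the part of this floor was not tested. ALDH1A1 stood at 1.75 and 1.41, against 0.243 and 0.102 in basal cells, and 0.308 and 0.0227 in granular cells. CCL20 was by far the most abundant of them. FBP2, TTC39C and PON3 completed the first 10 by the smaller ratio to the next state.

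The spinous cells were not uniform. After thinning every cell to 3000 UMIs, the Fano factor (variance over mean across cells, near 1 for counting noise alone) had a median of 1.05 over 2842 genes with a mean of at least 0.1 UMI in both libraries, and it was at least 5 in both for 64 genes. The 10 most variable genes by the smaller of both libraries were CST6, S100A7A, SPINK7, LOC102177275, KRT10, HSPA6, CCL20, LOC102178315, LOC102183026 and KRTDAP. CST6 had a Fano factor of 277 and 393, and the 10% of cells with most CST6 held 85.8% and 86.0% of its UMIs. S100A7A reached 231 and 211, with 81.7% and 97.3% of its UMIs in 10% of the cells, and a median cell held 1 and 0 UMIs of 3000. SPINK7 reached 68.3 and 79.5. KRT10 itself varied less (32.3 and 33.3), with a median of 81 and 117 UMIs of 3000. Levels of CST6 and S100A7A summed over cells thus describe a minority of the spinous cells. Of the uncharacterised genes, LOC102183026 lies between SPRR4 and LELP1, LOC102177275 next to KRT14 and LOC102178315 next to HSP70.1 in the reference table.

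The variable genes fell into sets that varied together across the 872 and 1665 cells. The correlations (Pearson r of ln(1 + UMIs) in thinned cells) describe cells that share a library and its free RNA. In the first set, S100A7A correlated with SPINK7 (r = 0.76 and 0.81), with the kallikrein KLK12 (0.74 and 0.79), with KRT4 (0.51 and 0.65) and with AQP3 (0.49 and 0.51). In the second, CST6 correlated with KLK7 (0.59 and 0.68) and with KRT79 (0.44 and 0.53), a keratin known from the upper hair follicle and sebaceous duct, and inversely with KRT1 (-0.31 and -0.55). Another set joined FOS with JUN (0.77 and 0.75) and JUNB (0.72 and 0.71), and HSPA6, an inducible heat shock gene, with UBB (0.56 and 0.63) and FOS (0.51 and 0.44). CCL20 belonged to none of them: its r with the 29 other variable genes that have a symbol ran from -0.24 to 0.07 and from -0.31 to 0.23.

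**Figure D4:**
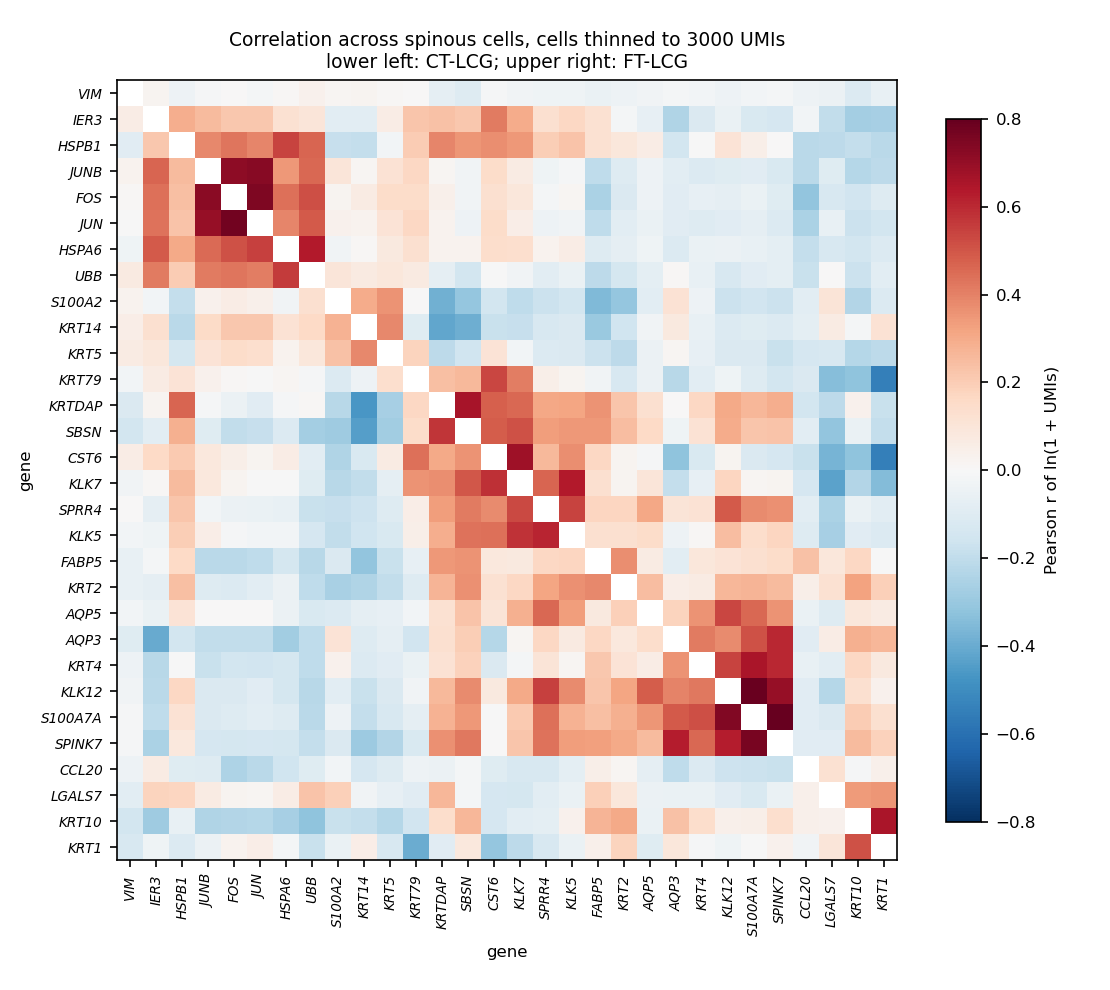
Pearson correlation across spinous cells of ln(1 + UMIs), after thinning to 3000 UMIs, for the 30 most variable genes with a symbol; the lower left triangle is CT-LCG and the upper right FT-LCG. Red blocks on the diagonal hold FOS, JUN and JUNB, then CST6, KLK7 and KLK5, then S100A7A, SPINK7 and KLK12, with blue where CST6 and KRT79 meet KRT1.

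Cells with a KRT79 UMI after thinning were 5.62% of the spinous cells in CT-LCG (49 cells) and 14.7% in FT-LCG (244 cells). The share was 4.26% and 7.34% in basal cells and 6.25% and 0% in the 16 and 21 fibroblast cells, where 0 of 21 allows up to 14.3%. The presence of a KRT79 UMI was thus not above the fibroblast background in CT-LCG, which rests on 16 cells. In FT-LCG the share lay close to the limit that 0 of 21 allows, so it was not clearly above that background either. The level of KRT79 in the spinous cells with its UMI, which it chose, was 11.9 and 21.4 per 10000, against 0.0582 and 0.142 in the other spinous cells. The spinous cells with a KRT79 UMI held CST6 at 204 and 480 per 10000, against 8.38 and 28.5 in the others. KLK7 stood at 17.4 and 18.2 against 2.81 and 3.14, and KRTDAP at 209 and 218 against 120 and 116. KRT1 was lower in them, at 139 and 121 against 236 and 218, as was AQP3, at 18.3 and 15.8 against 40.7 and 38.3. S100A7A stood at 57.6 and 7.59 against 131 and 72.7. Hair follicle SOX9 stood at 2.13 and 3.91 against 0.397 and 0.811. No further cell type name was given to these cells.

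The share of KRT14 and KRT5 within the limit of 30% also ordered the cells. In 4 groups of equal size per library, the median share went from 0.216% to 10.4% and from 0.565% to 17.8%, and the median depth from 27539 to 12216.5 UMIs and from 17379 to 10518. From the lowest to the highest group, S100A7A went from 181 to 11 per 10000 and from 112 to 10.8, and SPINK7 from 116 to 5.95 and from 75.5 to 7.58. KRT2 went from 12.1 to 1.45 and from 10.5 to 1.63, FABP5 from 57.6 to 22.0 and from 77.5 to 27.3, and CCL20 from 18.9 to 8.99 and from 32.1 to 13.5. CST6 went the other way, from 7.15 to 43.4 and from 32.3 to 127, as did S100A2 (13.4 to 31.7 and 9.43 to 44.3), FOS (12 to 31.4 and 17.8 to 36.2) and POSTN (0.108 to 1.13 and 0.213 to 2.25). LGALS7 (90.3 to 86.0 and 155 to 124) and DSG1 (11.2 to 7.0 and 9.12 to 6.38) varied less. The part of depth in these values was not tested.

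As shares of cells with a UMI after thinning to 3000, AQP3 was found in 85.6% (95% interval 83 to 87.8) of the spinous cells of CT-LCG and 87.7% (86.0 to 89.2) of FT-LCG, and CCL20 in 36.9% (33.7 to 40.2) and 35.1% (32.8 to 37.5). Without thinning the shares were 96.4% and 96.5% for AQP3, and 52.8% and 48.3% for CCL20. In fibroblast cells, which had a median of 4506.5 and 4399 UMIs and should lack these genes, the thinned shares were 31.2% and 28.6% for AQP3 and 12.5% and 4.76% for CCL20. DSG1 was found in 85.3% and 85.6% of the spinous cells against 12.5% and 14.3% of the fibroblast cells. KRT4 was found in 12.8% and 8.71%, against 0% of the fibroblast cells in both libraries, which allows up to 18.8% and 14.3%. For S100A7A (69.6% and 29.1%) and CST6 (50.0% and 82.0%), shares in fibroblast cells were 87.5% and 28.6%, and 25% and 76.2%. Presence of a single UMI of S100A7A was therefore at background in both libraries, while its level was 5.25 and 1.47 per 10000 in fibroblast cells against 128 and 64.2.

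Between the libraries, 763 of 9895 genes with at least 100 UMIs in the spinous cells of both libraries together were at least 2-fold higher in CT-LCG (7.71%) and 378 were at least 2-fold lower (3.82%). The median log2 ratio of CT-LCG over FT-LCG was 0.07. Of the 763 higher genes, 663 had enough UMIs in basal cells, where 640 had the same direction and 342 (51.6%) were also past 2-fold. Of the 378 lower genes these were 331, 326 and 195 (58.9%). All 4 markers stayed within 2-fold, with log2 ratios of 0.17 for KRT1, -0.36 for KRT10, 0.16 for AQP3 and -0.36 for CCL20. None of the 18 junction genes or 34 lipid genes compared passed 2-fold in either direction. These ratios compare 1 goat with 1 goat, and fibre type, animal and library cannot be told apart.

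Among the largest ratios, uncharacterised genes made up 8 of the 12 toward CT-LCG and 9 of the 12 toward FT-LCG, and many stood alike in basal cells. LOC108633505 stood at 17.9 in CT-LCG against 0.498 in FT-LCG in spinous cells and at 15.1 and 0.528 in basal cells. LOC102180443 stood at 0.120 and 10.7, and in basal cells at 0.161 and 14.9. LOC102178422, with 0.963 and 0.00752, and LOC100860961, with 0.0436 and 1.25, showed the same. LOC102186642 stood apart, with 1 UMI in CT-LCG against 0.399 per 10000 in FT-LCG, and with 0.0352 in the basal cells of FT-LCG. Of named genes, ELAVL3, POU2F2, ALDH3A1 and CHI3L2 were among the 12 toward CT-LCG, at 0.0603, 0.0866, 0.0561 and 0.0633 per 10000 in CT-LCG. PEBP1, a Raf kinase inhibitor, was higher in FT-LCG (0.0233 against 0.470, log2 ratio -4.34; in basal cells -3.94), as were THBS2 (-5.10, with 2 UMIs in CT-LCG and an interval of -8.16 to -3.21) and PDZK1 (-3.89).

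In the gene lists, S100A8 and S100A9, the subunits of calprotectin, had the largest ratios toward CT-LCG. They were the 2 higher of 12 S100 and antimicrobial genes compared, where 7.71% of all genes compared were higher in CT-LCG and 3.82% lower. In that list 3 were lower in CT-LCG (S100A4, S100A10 and S100A13), and the median log2 ratio was -0.27. S100A8 stood at 19.3 in CT-LCG against 0.988 in FT-LCG, a log2 ratio of 4.29 (counting interval 4.23 to 4.35), and S100A9 at 6.56 and 0.378 (4.12, 4.02 to 4.22). In basal cells S100A8 stood at 6.83 and 0.507 and S100A9 at 2.40 and 0.394. S100A8 was found in 60.1% and 9.31% of thinned spinous cells, with 25% and 0% in fibroblast cells. S100A7A (128 and 64.2) and SPINK7 (87.6 and 44.2) were both close to 2-fold higher in CT-LCG (0.99 each). In basal cells S100A7A stood at 4.11 and 1.36 and SPINK7 at 2.38 and 0.618, and in granular cells at 366 and 5.19 and at 112 and 16.8. In the cells in between the direction was the other way, with S100A7A at 6.09 and 11.4 and SPINK7 at 1.99 and 5.24. S100A7A stood at 70.5 and 17.0 in the barcodes that were not kept, also higher in CT-LCG. The shares over all genes, 7.71% higher and 3.82% lower, also stand beside the counts of the lists that follow. Of 37 transcription factors compared, 6 were higher in CT-LCG, including EHF (7.89 and 2.14, in basal cells 5.74 and 1.40), KLF5 (4.43 and 1.88, in basal cells 3.51 and 1.51), NFIL3 (3.26 and 0.826) and ID2 (4.19 and 0.712), and 2 were lower, ID1 (9.40 and 19.2) and SOX9. Heat shock and stress genes had 4 of 20 higher, led by HSP90AB1 (27.6 and 13.1, in basal cells 31.6 and 14.3) and DNAJA1 (7.90 and 2.46), with a list median of 0.34, and 6 of 24 channel genes were higher, among them TRPV3 (0.714 and 0.203, in basal cells 0.503 and 0.0617) and the pump chains ATP1B1 and ATP1B3.

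Toward FT-LCG, CST6 stood at 17.2 in CT-LCG against 87.2 in FT-LCG, a log2 ratio of -2.34 (-2.36 to -2.32), and in basal cells at 1.78 and 10.5. In the barcodes that were not kept CST6 stood at 29.7 and 143, above the spinous level in both libraries and in the same direction, and the part of free RNA in the difference was not tested. Among the spinous cells without a KRT79 UMI, a group described after the values were seen, CST6 stood at 8.38 and 28.5. These levels lie below those of the barcodes that were not kept. The part of the KRT79 cells in the difference was not tested. KRT79 (-2.28), KRT77 (-1.47), KRT23 (-1.28), KRT5 (-1.81), KRT19, KRT6A and KRT78 were the 7 of 15 keratins lower in CT-LCG, and KRT3 and KRT9 the 2 higher. Over all genes compared, 3.82% were lower and 7.71% higher. KRT5, KRT6A and LOR were limited by the rule that chose the cells, so counts and medians that include them rest on it in part. Of 12 basal markers compared 5 were lower in CT-LCG, KRT5 among them and also COL17A1 (0.321 and 0.930), ITGB4 and POSTN (0.344 and 0.907), and 1, LAMA3, was higher. Markers of other cell types moved with them. All 4 outer root sheath markers compared (SFRP1, SOX9, KRT19 and the limited KRT6A) were lower, with a median log2 ratio of -1.80. All 3 fibroblast markers compared (DCN, POSTN and VIM) were lower too, with a median of -1.37. POSTN is also among the basal markers just counted, and stood at only 0.829 and 3.26 in fibroblast cells, so it does not set fibroblasts apart here. Of 2 immune markers compared, CD74 was lower and none was higher, with a median of -1.51. The part of all these markers in the differences was not tested. The hair, cycling, gland and melanocyte lists did not go this way. The 7 hair shaft and inner root sheath markers compared had a median of 0.61, with TCHH higher and KRTAP3-1 lower. PCNA was the 1 of 2 cycling markers that was higher, and none of 4 gland markers or of 1 melanocyte marker passed 2-fold. Levels in basal cells, 7.10 and 8.29 for COL17A1 and 13.7 and 18.9 for POSTN, differed less. IVL (0.242 and 0.842), CASP14 (0.235 and 1.01), CDSN (0.283 and 0.894) and the limited LOR, of 8 granular markers compared, were lower in CT-LCG. NR4A1 stood at 0.751 and 4.77. CD74, an antigen presentation gene, stood at 0.0143 and 0.122 (-3.09), and in basal cells at 0.0582 and 0.684.

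**Figure D5:**
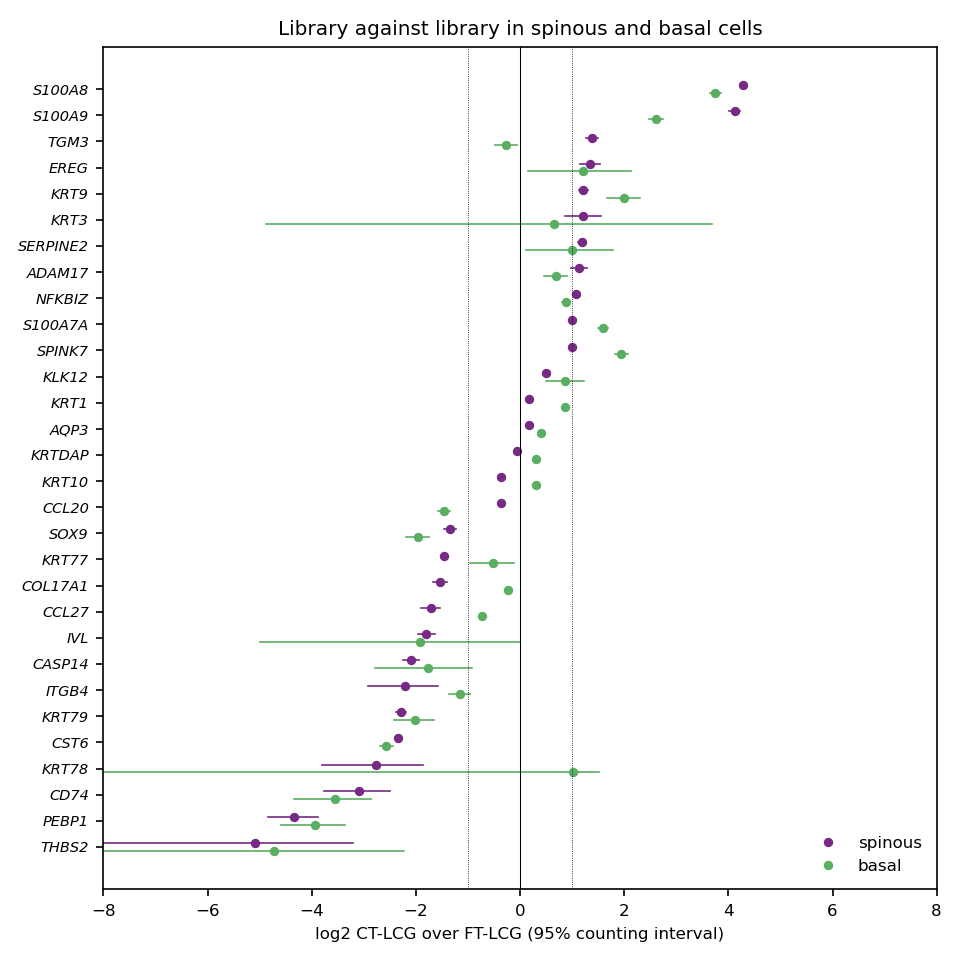
Log2 ratio of CT-LCG over FT-LCG for 30 genes in spinous (purple) and basal cells (green), with 95% counting intervals, which run to the edge where they have no limit within the axis; dotted lines mark 2-fold. S100A8 and S100A9 lie right of 2 in both states, CST6 and KRT79 lie left of -2 in both, and KRT1, KRT10 and AQP3 lie within 2-fold in both.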

How the data were processed

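Whole scapular skin of 2 goats was profiled with the 10x Chromium 3′ V3 kit, and the labels put both samples in 1 group, anagen skin. The authors deposited UMI counts as whole numbers per gene and barcode, made with Cell Ranger (3.0.2 per the file header) and not normalized, in 1 matrix of 27137 genes and 17299 barcodes. The submitters' processing notes also list bcl2fastq and Seurat 3.1.1. They list the builds GRCh38 and GRCm38, of human and mouse, for this goat series. Which goat genome build and annotation the reads were aligned to is not given in the sources used here. Each cell's library was read from a second deposited file, which lists the 13051 cells that the authors kept after limits of 500 genes and of 10% mitochondrial content per cell in the study's text. Of the genes, 27103 matched the reference table of RefSeq symbols, which was used only for neighbouring genes.

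UMIs were summed over the cells of a state and library and scaled to 10000, with exact Poisson 95% intervals. Ratios have conditional binomial intervals. A level of 0 stands at a floor of 3 counts per group in ratios. Counts above 0 but below this floor were kept as they are. A gene with 1 UMI in a group thus had a more extreme ratio than an otherwise equal gene with 0, and rankings by ratio favour such genes. Shares of cells with a UMI used cells thinned to 3000 UMIs. With 1 library per fibre type no test was run. Genes were called at 2-fold or more, in both libraries for differences between states, with at least 100 UMIs in the compared groups together. Doublets were not removed: Scrublet (scanpy 1.11.5) marked 0 cells, and an alternative left out the highest 5% of scores. The scripts (Python 3.11.15, numpy 2.4.6, scipy 1.17.1, pandas 2.3.3) were tested on simulated data.

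The members and gene lists were chosen with earlier results of these data known. Named genes were the 4 markers, the 15 most abundant, the 10 largest ratios each way against basal and granular cells, the 10 first by height over the next state, the 12 largest ratios each way between libraries, the 10 most variable, and the most abundant or 2-fold different members of each list. Genes described with the KRT79 cells and along the keratin share were chosen after their values were seen. Alternatives changed the limits on cells, the scaling, the UMI minimum, the fold limit, the free RNA and the doublets. The free RNA setting subtracted 10% of the UMIs of each state and library, in the profile of the barcodes that the authors did not keep. The study counted those barcodes as cells before its quality control, so their profile is no measure of free RNA alone.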

Additional observations from a re-analysis of the deposited data

Results flagged for a closer look

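For 3 genes the difference between spinous and basal cells had opposite directions in the 2 libraries, with counting intervals beyond 0.5 on the log2 scale on either side of 0. With 1 library per fibre type, this difference between the libraries was not tested. IL23A, a subunit of interleukin-23, had a log2 ratio of spinous over basal of 2.012 in CT-LCG (9 basal UMIs) and -0.793 in FT-LCG. TGM3, an epidermal transglutaminase, had 0.7553 and -0.8996, with levels of 1.15 and 0.440 per 10000 in spinous cells. The uncharacterised LOC102191806, which lies between GNLY and SFTPB in the reference table, had 1.194 and -2.787, with 16 spinous UMIs in FT-LCG.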

How the results depend on the processing

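Counts of genes past 2-fold depended on the limits, and the cause was not tested beyond what each setting changes by construction. Counts of the 7 genes at least 2-fold above each other state were 11 with a keratin share under 40% and with 10% free RNA subtracted, 3 with the 4 keratins at 200 or more, 4 with scaling by the median ratio, 0 with thinned cells, 38 at a fold limit of 1.5 and 1 at 3. Genes higher than in granular cells (516) were 216 with the 4 keratins at 200 or more, 48 with LOR under 2, 827 with LOR under 10, 329 by the mean over cells, 78 with thinned cells, 181 with median scaling, 840 with free RNA subtracted, 293 at 300 UMIs per gene, 1627 at 1.5-fold and 88 at 3-fold. Genes lower than in granular cells (197) were 110 with LOR under 2, 390 with thinned cells, 331 with median scaling, 321 at 30 and 118 at 300 UMIs per gene, 339 at 1.5-fold and 101 at 3-fold. Higher genes made up 72.4% of both against granular cells, and 16.7% with thinned cells, 35.4% with median scaling and 30.4% with LOR under 2. After thinning, a gene at 0 in the 14 granular cells of CT-LCG stands at the floor of 3 counts, which can place it among the lower genes. The part of this floor in the thinned counts was not tested. Genes higher than in basal cells (547) were 994 at 1.5-fold and 304 at 3-fold. Genes lower than in basal cells (464) were 941 at 30 and 180 at 300 UMIs per gene, 1050 at 1.5-fold and 201 at 3-fold. Genes higher in CT-LCG (763) were 1187 with thinned cells, 1966 at 1.5-fold and 207 at 3-fold. Genes lower in CT-LCG (378) were 669 at 30 and 196 at 300 UMIs per gene, 1041 at 1.5-fold and 147 at 3-fold. With either library alone, the ranges were 593 to 1801 lower than in basal cells, 1197 to 2253 higher and 389 to 393 lower than in granular cells. Without thinning, AQP3 was found in 96.4% and 96.5% of the cells and CCL20 in 52.8% and 48.3%. In cells of 3000 to 6000 UMIs, 6 of the 10 most variable genes were the same. The log2 ratios of spinous over granular of SLC35E3, GPR155 and IL23A turned to -1.37, -1.58 and -1.66 with thinned cells, where the 0 of the 14 granular cells of CT-LCG stands at the floor of 3 counts. The other 123 counts and shares stayed within 1.5 times or the interval. Of values of named genes, 122 levels and 130 log2 ratios moved by more than the spread between the libraries, or for ratios between the libraries by more than the counting interval, without a change of direction, and 1180 and 827 stayed within it. Leaving out the cells with a KRT79 UMI, chosen after seeing the data, gave 534 higher and 453 lower genes against basal cells and 742 higher and 323 lower between the libraries. The states were compared within each library, and no test was run on these pairs. Between the libraries no paired analysis was possible, because there was 1 library per fibre type.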
